A study of Beta vulgaris with 6 samples.

Results

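The level of 4 enzyme sequences of specialized metabolism was followed with an expression array of the sugar beet shoot apical meristem. Probes P1077 (accession FG343208, beta-amyrin synthase), P22100 (BQ582907, carotenoid epsilon-ring hydroxylase LUT1), P457 (FG345845, HXXXD-type acyl-transferase-like) and P1121 (FG344953, ACC oxidase-like protein 9) were taken by name, which gave 4 of the 53752 probes of the array. All 4 come from the sequences that the study selected because their expression differed by more than 2-fold between bolting-resistant and bolting-sensitive genotypes and because they also differed in DNA methylation. Their expression differences between these genotypes are therefore given as a description, with no test. DNA methylation was not analysed here.

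Total RNA was measured in 3 bolting-resistant genotypes (genotypes 1, 4 and 7, labelled as having a low capacity to bolt) and 3 bolting-sensitive genotypes (genotypes 2, 3 and 5, a high capacity to bolt). All 6 were biennial Beta vulgaris altissima genotypes, grown for 8 weeks at 22 °C with 16 h of light and then kept for 9 weeks at 4 °C, and no meristem without cold was on these arrays. Each genotype was represented by 1 shoot apical meristem, from which differentiated tissue had been removed, so that a difference between groups cannot be told apart from differences between single plants, and fewer cells of a type cannot be told apart from less RNA per cell. For genotypes 3 and 7 labelled RNA went onto 2 arrays, which were averaged, and for the other genotypes onto 1. The bolting classes follow the sample labels, whose genotype numbers are not paired with other names of these genotypes.

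The 8 arrays shared 1 slide and 1 scan. The scanner software called 42.6% to 45.0% of the spots well above background, and the lowest intensity so called was 17.3 to 30.2, depending on the array. A probe was retained if it passed the quality flags on all arrays of at least 1 group, which left 22314 probes. No marker of the meristem could be checked, because the files name probes by number and only a list of sequences chosen by the study pairs some of them with genes.

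Oxidosqualene cyclases such as beta-amyrin synthase fold 2,3-oxidosqualene into triterpene skeletons, the scaffolds of saponins, at the branch point with sterol synthesis. The Arabidopsis cytochrome P450 LUT1 hydroxylates the epsilon ring of carotenes on the way to lutein, a xanthophyll of the photosynthetic apparatus. Acyltransferases with the HXXXD motif (the BAHD family) join an acyl group from coenzyme A to an alcohol or amine, and members of the family contribute to cutin, suberin, phenolic esters and many other products. 1-aminocyclopropane-1-carboxylate (ACC) oxidase forms ethylene and belongs to the large superfamily of iron-dependent oxygenases, most of which use 2-oxoglutarate and make other products.

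The names rest on the nearest Arabidopsis sequence, and they were set against the annotation of the sugar beet gene model given for each probe. The probe named for beta-amyrin synthase, P1077, is assigned to gene model Bv7u_181680_otyh, annotated as an oxidosqualene-lanosterol cyclase, which fits its name. For P1121 (Bv3_049870_xxoz) the annotation is an iron/ascorbate family oxidoreductase with the name deacetoxyvindoline 4-hydroxylase, which places it among the 2-oxoglutarate oxygenases and does not name it an ACC oxidase. In the section of the annotation that holds P22100 and P457, the columns stood 1 row too high. Of 62 described sequences there, 28 shared a word with the row above and 1 with its own row, whereas in the other section 28 of 63 shared a word with their own row and 0 with the row above. Read with this shift, P457 (Bv_39660_duks) carries acetyltransferase names, which fit its label. P22100 (Bv7_160760_mmcw) then carries the name of a caffeic acid 3-O-methyltransferase, an enzyme of phenylpropanoid metabolism, and not that of a carotenoid hydroxylase. The name LUT1 is therefore kept here as the label of the probe only.

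Levels are given as log2 intensity relative to the 75th percentile of the same array, so that 0 is a fairly bright spot, and levels of different probes are not compared with each other. P1077 was higher in every resistant genotype than in any sensitive one. Its level was 1.98 in genotype 1, 1.59 in genotype 4 and 2.82 in genotype 7, against 0.54 in genotype 2, 0.82 in genotype 3 and 0.41 in genotype 5. The mean was 2.13 ± 0.63 (SD, n = 3) in resistant and 0.59 ± 0.21 (SD, n = 3) in sensitive genotypes, a difference of 1.54 with a standard error of 0.35, or 2.90-fold. Genotype 7 stood 0.84 above genotype 1, a larger step than the 0.77 that separated the lowest resistant genotype, 4, from the highest sensitive genotype, 3. The resistant genotypes thus differed among themselves by up to 2.35-fold, and the smallest difference between a resistant and a sensitive genotype was 1.70-fold.

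P22100, the probe labelled LUT1, showed the opposite direction. Its level was -3.14, -2.56 and -3.13 in resistant genotypes 1, 4 and 7, and -0.56, -1.30 and -0.99 in sensitive genotypes 2, 3 and 5. The mean of -2.94 ± 0.33 (SD, n = 3) in resistant genotypes compares with -0.95 ± 0.37 (SD, n = 3) in sensitive ones, a difference of -1.99 with a standard error of 0.28, and the probe was 3.98-fold higher in sensitive genotypes. The closest resistant and sensitive genotypes, 4 and 3, were 2.39-fold apart, more than any 2 genotypes of the same group (at most 1.67-fold). The probe was well above background on all 8 arrays, but on the resistant arrays it was dim, with intensities of 37.9 to 48.8 against 157 to 267 on the sensitive arrays.

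The acyltransferase probe P457 was detected in sensitive genotypes alone. On the 4 arrays of sensitive genotypes its intensity was 45.4 in genotype 2, 49.3 and 35.7 in genotype 3 and 33.9 in genotype 5, each well above background. On the 4 arrays of resistant genotypes it was not well above background, with intensities of 5.03, 4.48, 4.00 and 4.23, where the software's own error was as large as the signal (100% to 101%). As log2 levels these were -3.12, -3.32 and -3.35 in sensitive genotypes 2, 3 and 5 and -6.37, -6.01 and -6.49 in resistant genotypes 1, 4 and 7, a recorded difference of -3.03. The software did not call the resistant values positive and significant, so the standard error of 0.20 does not measure their spread between genotypes. Since the resistant values only give a bound, the level was at least 1.86-fold higher in sensitive genotypes, taking for each resistant array the lowest intensity that was well above background. Even in the sensitive genotypes the signal was only 1.24 to 1.70 times that lowest intensity, and values below it have no order. The single spot of P457 lies in the last row of the array, 384, and its local background was marked as an outlier on the arrays of genotypes 1 and 2 and the second array of genotype 3. Of the 70 retained probes of that row, 2 (2.86%), P457 among them, were more than 2-fold higher in sensitive genotypes. The share was 3.70% of the other retained probes, and the median difference in that row was 0.07. An effect of the position on this spot was not tested.

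P1121, the ACC oxidase-like probe, was also higher in sensitive genotypes, by little more than 2-fold. Its level was 0.18, 0.66 and 0.33 in resistant genotypes 1, 4 and 7, and 1.96, 0.91 and 1.40 in sensitive genotypes 2, 3 and 5. The mean was 0.39 ± 0.25 (SD, n = 3) in resistant and 1.42 ± 0.53 (SD, n = 3) in sensitive genotypes, a difference of -1.03 with a standard error of 0.31, or 2.05-fold. The groups were separated by 0.25 between genotypes 4 and 3, or 1.19-fold, less than the 2.08-fold between sensitive genotypes 2 and 3. Without genotype 2 the difference fell to -0.76 and without genotype 1 to -0.93, both under 2-fold.

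In the recorded values of each of the 4 probes, then, the 3 resistant and the 3 sensitive genotypes did not overlap and their means differed by more than 2-fold (for P457 only the bound of 1.86-fold is measured), which was the case for 1.58% of the retained probes (0.753% higher in resistant and 0.829% higher in sensitive genotypes). The 4 sequences were selected on this contrast, so nothing is read from their count. By the size of the difference alone, 1.97% exceeded P22100, 3.26% exceeded P1077 and 6.63% exceeded P1121. The median absolute difference was 1.77 over the 4 probes as recorded, 1.29 with P457 at its bound, and 0.19 over all retained probes. The SD within groups was 0.47 for P1077, 0.35 for P22100 and 0.41 for P1121, against a median of 0.35 over the retained probes.

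**Figure D1:**
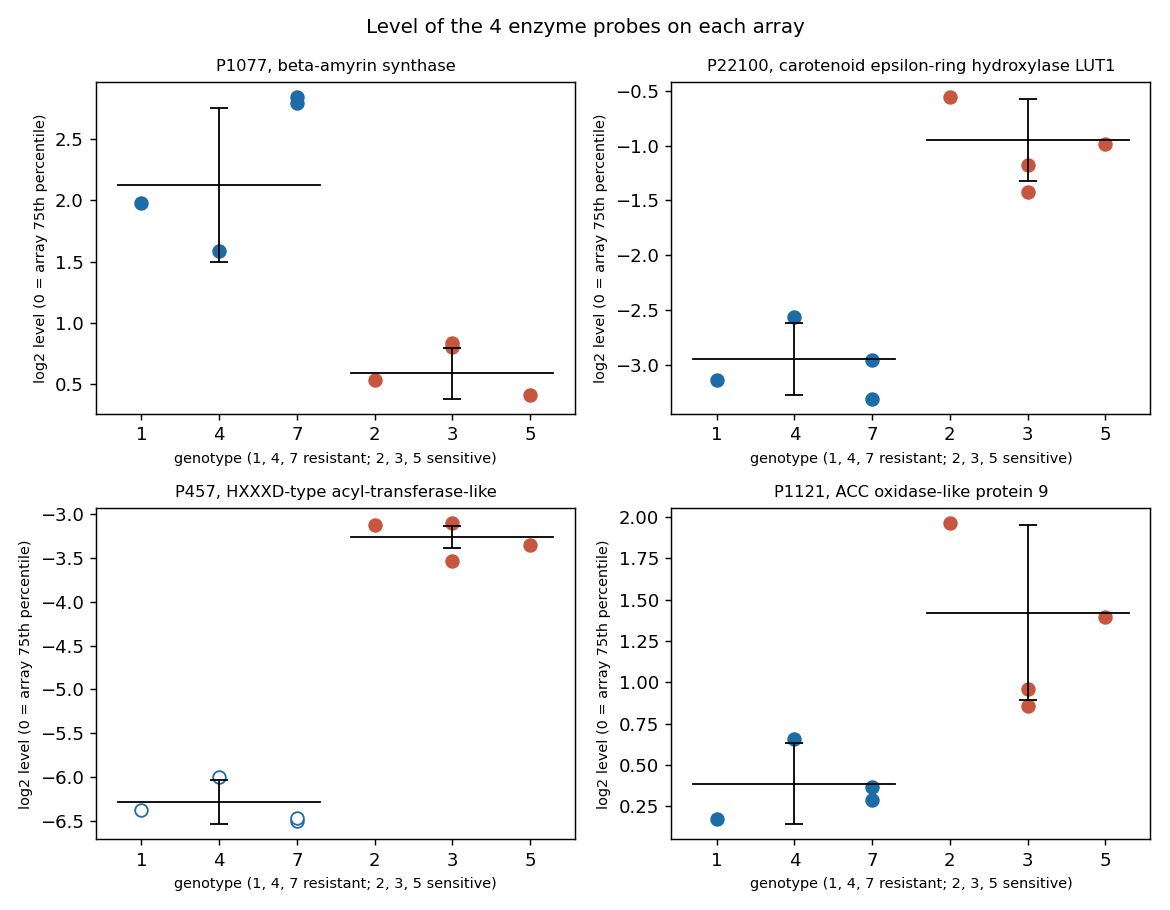
Level of each probe on each array (vertical axes, log2 intensity, 0 being the 75th percentile of the array) by genotype (horizontal axes, blue resistant, red sensitive). Filled points were well above background and open points were not, long bars are group means and error bars the SD of 3 genotypes, and genotypes 3 and 7 have 2 points, 1 for each array. The groups do not overlap in any of the 4 panels, with a gap of 0.25 for P1121 and open points for all resistant arrays of P457. The error bar of those open points is not a measured spread between genotypes.

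**Figure D2:**
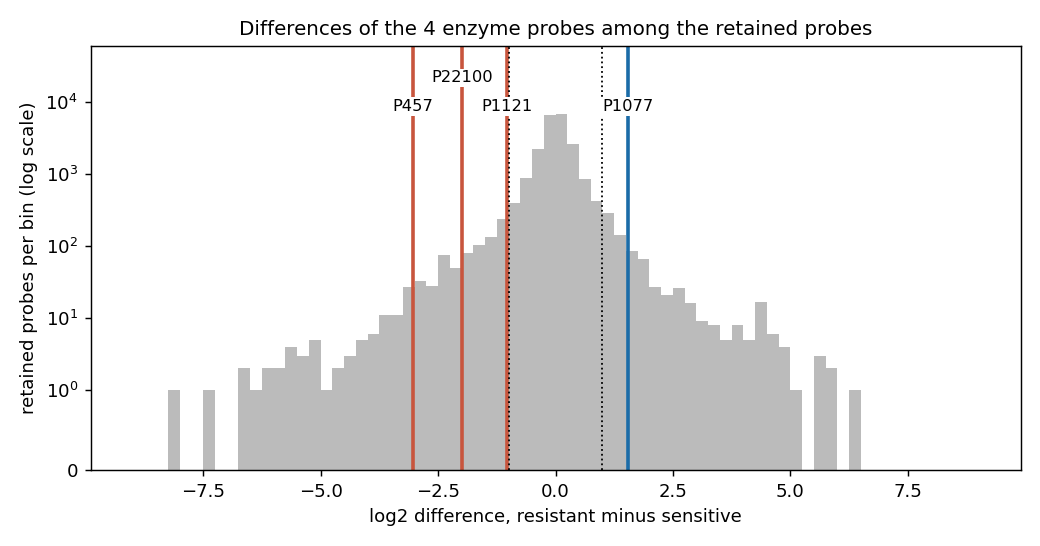
Number of retained probes (vertical axis, log scale) by their log2 difference between resistant and sensitive genotypes (horizontal axis, positive where resistant genotypes were higher). Coloured lines mark the 4 enzyme probes and dotted lines a 2-fold difference. P1121 lies at the 2-fold line, P22100 and the recorded value of P457 further out on the sensitive side, and P1077 on the resistant side.

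Repeated hybridization of the same genotype moved these values by less than the group differences. The 2 arrays differed by 0.03 for P1077 in genotype 3 and by 0.04 in genotype 7. For P1121 they differed by 0.10 and 0.08. For P22100, whose signal was dim, they differed by 0.25 in genotype 3 and 0.35 in genotype 7. The 0.35 is as large as the SD between resistant genotypes, 0.33, and the 0.25 is below the SD between sensitive genotypes, 0.37. For P457 they differed by 0.43 in genotype 3, larger than the spread of 0.23 between the 3 sensitive genotypes. The median over all retained probes was 0.06 in genotype 3 and 0.07 in genotype 7. Each of the 4 probes had 1 spot per array, and the spread between spots can be read only from the probes spotted 11 times: their median SD within an array was 0.30 at intensities of 20 to 50, where P22100 in resistant and P457 in sensitive genotypes lay, and 0.08 at intensities of 300 to 2000, where P1121 lay.

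The order of genotypes within a group was followed next. Genotype 4 had the highest level of the resistant genotypes for P22100 and P1121 and the lowest for P1077. Before scaling, the P1121 intensity was nearly the same on all resistant arrays, at 472 in genotype 1, 455 in genotype 4 and 469 and 459 in genotype 7. The array of genotype 4 had the lowest 75th percentile, an intensity of 288, and with scaling to the median of each array the P1121 level was 5.41 in genotype 4 and 5.43 in genotype 7, so that the lead of genotype 4 was gone for this probe. With that scaling genotype 4 was still the highest resistant genotype for P22100, at 2.19 against 1.92 in genotype 1 and 1.97 in genotype 7, and the lowest for P1077. Among sensitive genotypes, genotype 2 was highest for P22100 and P1121, with intensities of 267 and 1534 against at most 182 and 909 on the other sensitive arrays. How far meristems of 1 genotype differ was not measured.

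Across the 6 genotypes Pearson's r was 0.95 between P22100 and P1121, while P1077 ran opposite to P22100 (r = -0.94) and to P1121 (r = -0.84). Probes selected on the same contrast correlate through it, and all values of a genotype share its arrays and scaling. After the group means were removed, P22100 and P1121 still had an r of 0.95 over the 6 genotypes. No such value is given for P457, whose resistant values have no order.

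P1077 was not the only probe of its gene model. The probes P28322 (BF011005, beta-amyrin synthase), P24260 (BQ489121, putative terpene synthase), P27373 (BI543266, putative lupeol synthase) and P963 (FG344264, camelliol C synthase) are assigned to the same oxidosqualene cyclase model. Lupeol and camelliol C synthases form other triterpene alcohols from the same substrate in Arabidopsis, and probes on such similar sequences may share signal between gene copies. All 4 were again higher in every resistant genotype than in any sensitive one, and all 4 come from a list that the study chose for a difference on these samples. P28322 differed by 1.90 (SE 0.41) and P24260 by 1.60 (SE 0.26), close to the 1.54 of P1077.

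The probes of the model ranked the resistant genotypes alike, with genotype 7 highest, then genotype 1, then genotype 4. For P27373 this order is not established, since its resistant genotypes lay within 0.20 of each other and the 2 arrays of genotype 7 differed by 0.47. Among the sensitive genotypes P1077 was highest in genotype 3, P24260 in genotype 5, and P28322 and P963 in genotype 2. P963 was at 5.46, 4.45 and 4.26 in genotypes 7, 1 and 4. In the sensitive group it was at 3.09 in genotype 2, but at -1.76 in genotype 3 and -2.64 in genotype 5, so that 2 sensitive genotypes differed by 53.1-fold. Every value was well above background, with intensities of 3347 in genotype 2, 125 and 121 in genotype 3 and 55.2 in genotype 5, the last being 2.70 times the lowest intensity well above background on its array. P1077, in contrast, spanned 0.41 over the same 3 sensitive genotypes. The difference between groups for P963, 5.17 (SE 1.50), depended on genotype 2 and was 6.93 without it, whereas the ratio of mean linear intensities gave 3.25 on the log2 scale.

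P27373 was not well above background in any sensitive genotype. Its recorded value of -4.45 in genotype 2 was called positive and significant by the software, with an error of 36.4% of the signal. Those of -5.91 and -6.16 in genotypes 3 and 5 were not so called. All 3 lay below the lowest intensity well above background, and no order is read from them. In the resistant genotypes it was detected on every array, at -3.03, -3.12 and -2.92 in genotypes 1, 4 and 7, and was at least 1.87-fold higher than in sensitive genotypes. With the group means removed, P1077 had an r over the 6 genotypes of 0.86 with P28322, 0.78 with P24260 and 0.17 with P963. P28322 had an r of 0.64 with P24260 and 0.64 with P963, so that it stood between them. Among the probes of the model detected on all arrays, P963 thus departed most from the others, in sensitive genotypes 3 and 5. P1077, P28322 and P24260 spanned 1.23, 1.34 and 0.85 over the resistant genotypes. Over the sensitive genotypes they spanned less, 0.41, 0.88 and 0.31.

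**Figure D3:**
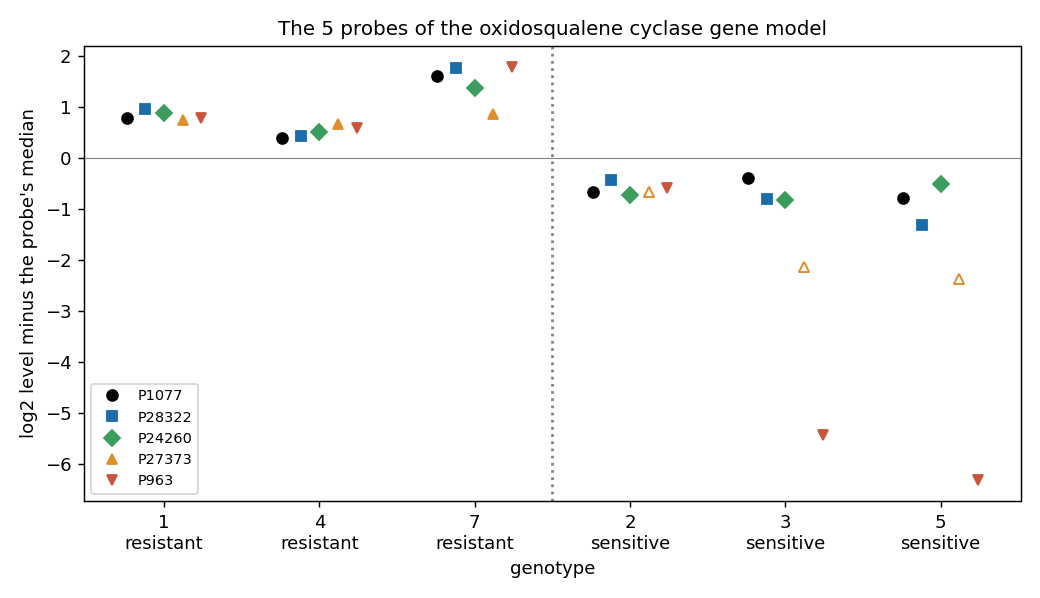
Level of the 5 probes of the oxidosqualene cyclase gene model in each genotype (vertical axis, log2 level minus the median of the same probe over the 6 genotypes), with resistant genotypes left and sensitive genotypes right of the dotted line. The probes lie close together in resistant genotypes and in genotype 2, and spread apart in genotypes 3 and 5, where P963 falls to its lowest levels, and open symbols were not well above background.

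From the same list of differentially expressed sequences, 17 other probes with an enzyme annotation of secondary or lipid metabolism gave the setting of the 4. Enzymes of the list with other functions were not counted. The study chose this list on these samples, so its counts are no independent evidence of a direction. In the recorded values of each of the 17 the groups did not overlap and differed by more than 2-fold, a contrast the selection had used, as in 1.58% of the retained probes. For P27373 and P16702, which were not well above background on any sensitive array, only a bound is measured, at least 1.87-fold and at least 1.51-fold. Of the 17 probes 7 were higher in resistant and 10 in sensitive genotypes, their median absolute difference was 1.60 as recorded and 1.29 with the bounds, and 16 were retained. Those higher in resistant genotypes came from only 2 gene models, the cyclase with 4 probes and a sulfotransferase (Bv3_058570_nfxw) with 3 probes. In the sulfotransferase model P22988, named for an enzyme that adds sulfate to hydroxyjasmonic acid, differed by 1.69 (SE 0.50) and P3318 by 1.20 (SE 0.25).

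The 3 probes named for cytochromes P450, beside the probe labelled LUT1, were all higher in sensitive genotypes. P16535, named for CYP714A1, of a family that inactivates gibberellins in Arabidopsis, had levels of 0.36, 0.45 and -0.17 in resistant genotypes 1, 4 and 7 and of 1.39, 1.59 and 1.07 in sensitive genotypes 2, 3 and 5, a difference of -1.14 (SE 0.25). P2000, named for CYP72A15, had a recorded difference of -2.88 (SE 0.71), with 1 of 4 resistant arrays well above background. P26490, named only as a cytochrome P450, differed by -1.12 (SE 0.26).

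Both other acyltransferase probes had the direction of P457 and were well above background on all 8 arrays. P6950, with the same Arabidopsis description as P457, was at 1.10, 1.03 and 1.07 in sensitive genotypes 2, 3 and 5, and at -1.75, -3.31 and -0.15 in resistant genotypes 1, 4 and 7. The sensitive genotypes were thus nearly equal and the resistant ones spread over 8.89-fold, with a difference of -2.80 (SE 0.76). P13786, named for a N-hydroxycinnamoyl/benzoyltransferase, which joins phenolic acids to amines, differed by -1.29 (SE 0.38), and its resistant genotypes also spread more widely (SD 0.73) than its sensitive ones (SD 0.07).

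The remaining 5 probes were all higher in sensitive genotypes. P22361, a protein with an NAD(P)-binding Rossmann fold, differed by -2.12 (SE 0.57). P21769, named for the lipoxygenase LOX2 that opens jasmonate synthesis in Arabidopsis, differed by -1.30 (SE 0.25), with 3 of 4 resistant arrays well above background. P14931, a putative epoxide hydrolase, differed by -1.13 (SE 0.32) and P27928, the glutathione S-transferase GSTU20, by -1.08 (SE 0.34). The glycosyltransferase P13397 did not pass the quality flags, and its recorded difference was -1.20. It was well above background on 1 of 4 resistant and 3 of 4 sensitive arrays.

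**Figure D4:**
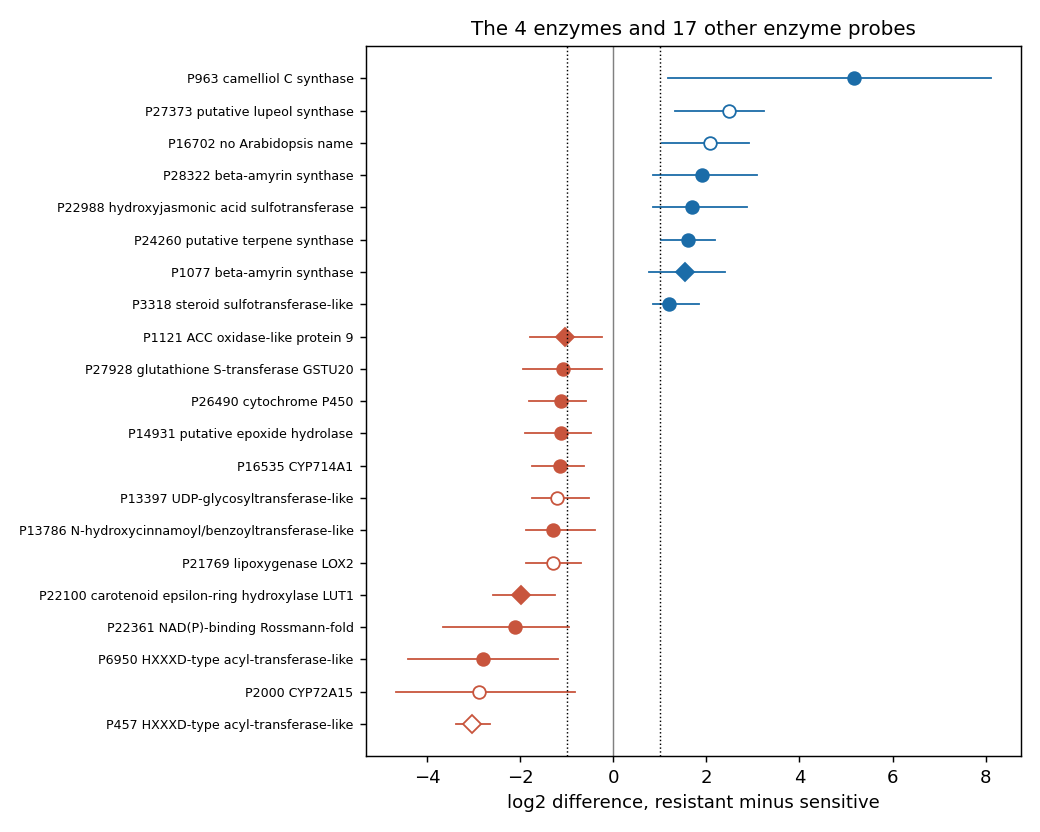
Log2 difference between resistant and sensitive genotypes (horizontal axis, positive where resistant genotypes were higher) of the 4 enzyme probes (diamonds) and the 17 other enzyme probes (circles). Lines span the 9 differences between a resistant and a sensitive genotype, open symbols mark probes not well above background on at least 1 array, and dotted lines mark 2-fold. Only cyclase and sulfotransferase probes lie on the resistant side, and no line reaches 0.

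For P1077, P22100 and P1121 the retained probes most like each over the 6 genotypes were sought among the 7120 with an SD of at least 0.5. For P1077 these were P17385 (r = 0.99) and P20739 (r = 0.98), neither of which is named here, and among sequences with an Arabidopsis description they were P28322 (r = 0.97) and P13476, an aspartyl protease family protein (r = 0.97). For P22100 they were P27716, the small nuclear ribonucleoprotein F (r = 0.97), and P25539, not named here (r = 0.97), and P19891, of the phosphoglycerate mutase family, followed among described sequences (r = 0.96). For P457, whose resistant values have no order, no likeness is given. For P1121 they were P22361, the Rossmann-fold protein above (r = 0.98), and P21778, which is not named here (r = 0.97), and P17628, named for the dehydration-related ERD7, followed among described sequences (r = 0.95). These are likenesses over 6 values that share arrays, and they include the contrast between the groups. P27716 differed by -5.63 and P19891 by -3.52 between the groups, in the direction of P22100. The described sequences come from the list that the study chose for a difference on these samples. Whether these probes were well above background in both groups is not given here.

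The differences were recomputed under other ways of processing. No alternative turned the direction of any of the 4. P1077 stayed between 1.42 and 1.66 when all 6 genotypes were kept. P22100 and P457 changed under settings that raise dim signals. With another background correction (normexp, offset 50), which adds a constant and starts from intensities without detrending, P22100 was at -1.11 and P457 at -0.61. With signals floored at the lowest level well above background P457 was at -0.89, while P22100 stayed at -1.99. P1121 lay on either side of the 2-fold line, at -0.91 with scaling to the array median and -0.96 with normexp.

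**Figure D5:**
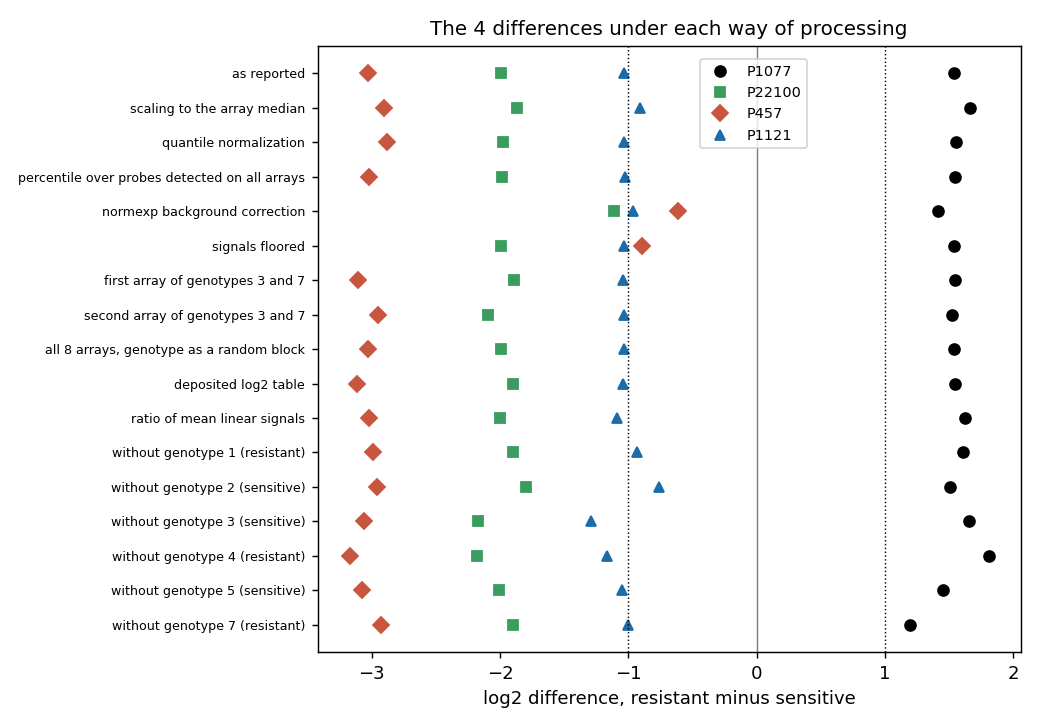
Log2 difference between resistant and sensitive genotypes (horizontal axis) of the 4 enzyme probes under each way of processing and without each genotype (vertical axis), with dotted lines at 2-fold. P457 and P22100 move towards 0 under normexp, P457 also under flooring, and P1121 crosses the 2-fold line under 4 settings.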

How the data were processed

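The authors deposited scanner output of Agilent Feature Extraction 10.7.3.1 for 8 one-colour Cy3 arrays, in which each spot has a background-subtracted, detrended intensity on a linear scale and quality flags, and a table of log2 values, normalized by them to the 75th percentile of each array and centred on the median of each probe. Of the latter, 99.99% of values lay within 0.05 of those computed here from the first arrays of genotypes 3 and 7.

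The log2 intensity minus the 75th percentile of log2 intensity over non-control spots was averaged over spots of a probe, then over arrays of a genotype. Probes passing the flags for outliers, saturation, significance and background on all arrays of at least 1 group were retained. Resistant minus sensitive genotypes were fitted with limma 3.58.1 (lmFit, eBayes) in R 4.3.3, files being read with data.table (version 1.17.8), on all retained probes, and standard errors are from that fit. The p threshold was 0.05 and the fold threshold 2, without adjustment and with Benjamini–Hochberg adjustment. The fit was tested on simulated data. Each genotype is 1 meristem, and the errors measure only the spread between the recorded values of these samples. The number of arrays limits the precision.

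The 4 members and the enzyme list were chosen with earlier results of these data known. Other named probes are 17 enzymes of secondary or lipid metabolism from the study's list of differentially expressed sequences, which holds further enzymes. For each member they also include the 2 retained and the 2 described probes with the highest Pearson's r among those with an SD of at least 0.5. Names and gene models come from the study's list, and 0 of 36 accessions and gene models matched the reference set of RefSeq genes. Methylation arrays were not analysed here. Probe sequences and positions are not given here. Alternatives were median scaling, quantile normalization, the percentile over probes detected on all arrays, normexp, flooring, each array of genotypes 3 and 7, a random effect of genotype over all 8 arrays, the deposited log2 table, linear means, other flag filters, both forms of the methods' t-test on the same values and leaving out each genotype. Figures were drawn with matplotlib 3.10.9.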

Additional observations from a re-analysis of the deposited data

How the results depend on the processing

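No result reversed its direction under any alternative run. Over all retained probes, limma called 389 at the unadjusted threshold with 2-fold and 18 after adjustment. Without the flag filter the first count was 776, with the methods' t-test it was 181 (equal variances) or 132 (Welch form), and without each genotype in turn it was between 352 and 810, the highest without genotype 1. Scaling to the array median moved the median of all retained probes from 0.01 to 0.13 and the called probes higher in resistant genotypes from 167 of 389 to 252 of 420. By construction it moves the difference of every probe by the same amount.

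Normexp gave -1.11 for P22100 and -0.61 for P457, and flooring gave -0.89 for P457. Both settings raise dim signals. Normexp also started from median spot and background intensities in place of the detrended intensity, and the parts of these 2 changes were not told apart. Among the other cyclase probes, normexp gave 0.64 for P27373 and 0.94 for P24260, and flooring 0.90 for P27373. Leaving out each genotype gave 1.19 to 1.81 for P1077, -2.18 to -1.80 for P22100, -3.17 to -2.93 for P457 and -1.29 to -0.76 for P1121. The range of P457 rests on recorded resistant values that were not well above background and is no measure of its precision. For P28322 the range was 1.54 to 2.21, for P27373 2.15 to 3.01, for P24260 1.38 to 1.81 and for P963 4.07 to 6.93. The remaining alternatives moved each of these values by less than the SD within groups.

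No paired analysis was possible because the sample titles number every sample as replicate 1 of its own genotype, so the groups share fewer than 2 label numbers. The numbers given to genotypes within a group here are names in accession order and pair nothing. The slide and scan could not be a block, since all arrays share them. The signal of P457 in resistant genotypes lay below the lowest intensity well above background and limits its difference to a lower bound.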
